A study of Mus musculus with 27 samples.

Results

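Transcript ends are the places where RNA polymerase II transcripts of annotated genes are cleaved and polyadenylated. An end was taken here as a window of 1000 bp either side of the last annotated base of a gene (mm9), for genes longer than 5 kb with no other gene of the expression table within 2 kb of that base. Of 20156 genes, 15479 were longer than 5 kb, 3169 of these were dropped for a neighbour, and 12310 ends (61.07% of the table) were kept, 6147 on the plus and 6163 on the minus strand. The rule uses gene coordinates and no measured value.

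The chromatin was that of mouse embryonic fibroblasts (MEFs), pre-iPSCs and iPSCs. MEFs came from E13.5 embryos hemizygous for the Oct4-GFP reporter and the Rosa26 allele, on a background that the labels give as CBA/CaJ and C57BL/6J, which per the study's methods is that of the males, crossed to 129Sv/Jae females. Pre-iPSCs, which are incompletely reprogrammed cells, and iPSCs were derived from such cells with retroviruses for the Yamanaka factors. Both were grown on MEF feeders in serum with LIF. The study's methods name 2 stable pre-iPSC clones and the iPSCs that correspond to them. Which library came from which clone is not given in the sources used here, so pre-iPSC and iPSC libraries may be linked by clone. Mononucleosomes released by micrococcal nuclease (MNase) were precipitated for H3, H3K4me3 and H3K27me3 (2 libraries per cell type each) and for H3K9me3 (1 library per cell type), and 2 RNA-seq libraries per cell type gave FPKM. MEFs were digested with another amount of MNase and for another time than the other cells, so cell type and digestion cannot be told apart in a comparison with MEFs. The study's methods call the 2 libraries of a group biological replicates, the labels do not tie them to separate animals or cultures, and p-values measure the spread between these libraries.

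Cleavage takes place downstream of a polyadenylation signal, most often AATAAA in the DNA and its variant ATTAAA, which the CPSF complex binds in the RNA, while CstF binds a GT-rich stretch after the cut. H3K4me3 marks active promoters, H3K27me3 is laid down by Polycomb repressive complex 2 over silent developmental genes, and H3K9me3 marks heterochromatin and the clusters of KRAB zinc finger genes. H3 itself reports where nucleosomes lie.

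The last 30 bases of 11 genes that mark MEFs, iPSCs or other lineages are printed, since the H3 profiles are centred on such stretches. Each reads 5′ to 3′ on the gene strand of mm9, ends with the last base of the transcript, and has its first AATAAA in capitals.
Col3a1 (chr1:45406522-45406551, plus strand): agtcatatAATAAAatatcataatgaaaca
Fn1 (chr1:71632097-71632126, minus strand): caagtgttttAATAAAaagatttacattcc
Prrx1 (chr1:165175250-165175279, minus strand): tcttttcAATAAAatgaaagagtgataata
Esrrb (chr12:87862549-87862578, plus strand): aaatctAATAAAtaaggaaaggtctgctga
Zfp42 (chr8:44380421-44380450, minus strand): tgtttcaaAATAAAaggaaataaaacacta
Epcam (chr17:88050438-88050467, plus strand): ccctatctgaaagaAATAAAaatcaaactt
Krt8 (chr15:101827142-101827171, minus strand): ttctaaAATAAAgcctcagctggctctgtc
Dab2 (chr15:6390680-6390709, plus strand): atttacgcattcAATAAActggaatgacaa
Sox17 (chr1:4481009-4481038, minus strand): aaAATAAAgtttgtgttgtgactgttagtg
Nes (chr3:87784344-87784373, plus strand): ccttgAATAAAgctgtatccctacctacaa
Ptprc (chr1:139959436-139959465, minus strand): tcAATAAActataaaattattcaaaatcac
The first base of the signal in capitals lay 15 bp (Epcam) to 27 bp (Sox17 and Ptprc) before the last base. The Zfp42 stretch holds another AATAAA, left in lower case, that lies nearer its last base than any in capitals. Col3a1, Fn1 and Prrx1 are genes of the mesenchyme, Esrrb and Zfp42 of pluripotent cells, Epcam and Krt8 of epithelia, Dab2 and Sox17 of endoderm, Nes of neural progenitors and Ptprc of blood.

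Most of the 12310 ends carried a signal. AATAAA was found in the last 40 bp of 7201 ends (58.5%), ATTAAA without AATAAA in 1721 (13.98%) and neither in 3388 (27.52%), and over all 20156 ends of the table AATAAA stood in 55.17%. On the opposite strand of the same 40 bp AATAAA was found in 5.78% of the ends, and in a stretch 500 bp further upstream in 2.24%. The first base of AATAAA lay most often 22 bp (663 ends), 21 bp (662 ends) or 23 bp (648 ends) before the end. Where an end held several copies, the copy nearest the end was taken for this. TGTGT stood in the 40 bp after 19.02% of the ends (17.93% over the table) and in the 40 bp before 6.47%, whereas TTTTT stood after 18.57% (17.11% over the table) and before 14.05%. ATTAAA stood in 2040 ends in all, with or without the canonical signal beside it, and a match is a match of letters in the window only. A GENCODE transcript end lay within 10 bp of 83.4% of the ends.

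The signal was more frequent at ends of expressed genes. Genes at FPKM 0 in both libraries held AATAAA at 50.58% of 2398 ends for MEFs, 49.84% of 1926 for pre-iPSCs, and 48.67% of 1615 for iPSCs. In the highest 5% of genes by FPKM the share was 69.17% of 519, 68.94% of 499 and 69.57% of 493 ends. Neither signal was found in 39.2% to 41.18% of the ends of genes at 0 and in 15.21% to 16.57% of those of the highest class. Ends are not replicates, and no test was made of these shares.

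The bases around the ends were A/T-rich. The mean GC content of the 10-bp bins lay at 45.3% in the bin centred 995 bp before the end, fell to 26.6% at 15 bp before it, and was back at 44.5% at 95 bp after it. The median GC content was 44.0% over the 2-kb window and 38.5% over the 200 bp centred on the end, and differed little between expression classes (37.0% to 40.5% over the 200 bp). A CpG-rich stretch, that is 200 bp with a GC content over 55% and an observed over expected CpG ratio over 0.6, was found in 9.01% of the windows. A GENCODE transcript start, of the same or of another gene, fell into 3.03% of the windows, and any other GENCODE gene into 8.8%.

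Of the H3 libraries, replicate 1 of pre-iPSCs and replicate 1 of iPSCs stood apart from the others. Their calls held 108 and 94.1 M reads against 67.4 to 82.8 M (M, 1e6), and 8.64% and 0.216% of their calls had over 50 reads against at most 0.0115% in the other 4. The mean H3 level of the ends (reads per kb, scaled to the uniquely mapped reads of the library, RPKM) was 0.670 and 0.438 in them, and 0.326, 0.333, 0.336 and 0.353 in the other 4 libraries. The tested H3 differences are therefore also given without these libraries, some of them only in the last paragraph. The mark libraries held 12.0 to 15.2 M reads in calls. The median end held 60 to 127 reads of H3 and 8 to 12 reads of a mark, and 3 reads at an end correspond to 0.012 to 0.017 RPKM of H3 and 0.079 to 0.102 RPKM of a mark. Intervals and such floors cover counting error only.

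The cell types were checked on their markers. The summed FPKM of 10 fibroblast genes was 9525 and 16797 for MEFs, 1513 and 1518 for pre-iPSCs, 499 and 700 for iPSCs, and that of 10 pluripotency genes 0.15 and 1.03, 905 and 3736, and 2421 and 2354. Of the 10 pluripotency genes, limma called 5 as risen in pre-iPSCs against MEFs and 10 in iPSCs against MEFs. In pre-iPSCs much of the sum came from Pou5f1 (378 and 3184 FPKM) and Sox2 (272 and 171 FPKM), both transduced factors, whose retroviral copies cannot be told apart from the genes in these FPKM. Tdgf1 (228 and 333 FPKM), Dppa5a (1.70 and 5.01) and Utf1 (23.2 and 1.67) were the others that rose in pre-iPSCs. Nanog and Zfp42 were at most 0.52 and 0.08 FPKM in MEFs and pre-iPSCs and at least 49.5 and 56.0 FPKM in iPSCs. Epithelial markers summed to 4.93 and 5.79 FPKM for MEFs, 76.5 and 34.2 for pre-iPSCs, and 136 and 167 for iPSCs, with 1 and 2 of 5 genes at 0 in MEFs. In pre-iPSCs against MEFs 3 of them rose and 1 fell, and in iPSCs against MEFs 4 rose and 0 fell. The fall was that of Krt18, from 4.42 and 5.08 to 1.06 and 0.84 FPKM, which made up most of the sum in MEFs. Markers of extra-embryonic endoderm summed to 4.97 to 33.9 FPKM, of neural cells to 18.4 to 41.3 and of blood to 1.28 to 5.82 over the 6 libraries. Within these lists the endoderm genes Gata6 and Dab2 fell in pre-iPSCs against MEFs, and in iPSCs against MEFs Dab2 fell and Gata4 rose. Of the neural genes, Pax6 and Sox1 rose in both comparisons with MEFs (Pax6 from 0 and 0.03 FPKM in MEFs to 4.42 and 7.10 in pre-iPSCs), while most of the sum in MEFs was Nes (41.3 and 27.8 FPKM), which fell in iPSCs. The cultures grew on MEF feeders, and the part of feeder chromatin in the values at ends was not tested. In bulk RNA, fewer cells of a type and less RNA per cell cannot be told apart.

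H3 was lower at transcript ends than on either side of them in all 6 libraries. The end ratio, the H3 density within 50 bp of the end over the mean density of both flanks (the outer 500 bp of the window on each side), was 0.607 and 0.613 for MEFs, 0.251 and 0.613 for pre-iPSCs, 0.424 and 0.55 for iPSCs. On the log2 scale the mean was -1.04 ± 0.51 (SD, n = 6; exact two-sided permutation test over the signs of the 6 libraries, p = 0.031, adjusted over 12 tests p = 0.0375), which is the smallest p that 6 libraries allow. Without replicate 1 of pre-iPSCs and of iPSCs the mean was -0.748. The lowest point of the profile lay 5 to 35 bp before the end, and was flanked by maxima 115 to 125 bp before and 75 to 95 bp after it in the libraries. At the lowest point H3 was 0.146 to 0.190 RPKM, and at the maximum after the end it was 0.437 to 0.903 RPKM. The 15 libraries of histone marks, which come from the same kind of digest, had end ratios of 0.614 to 0.770.

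**Figure D1:**
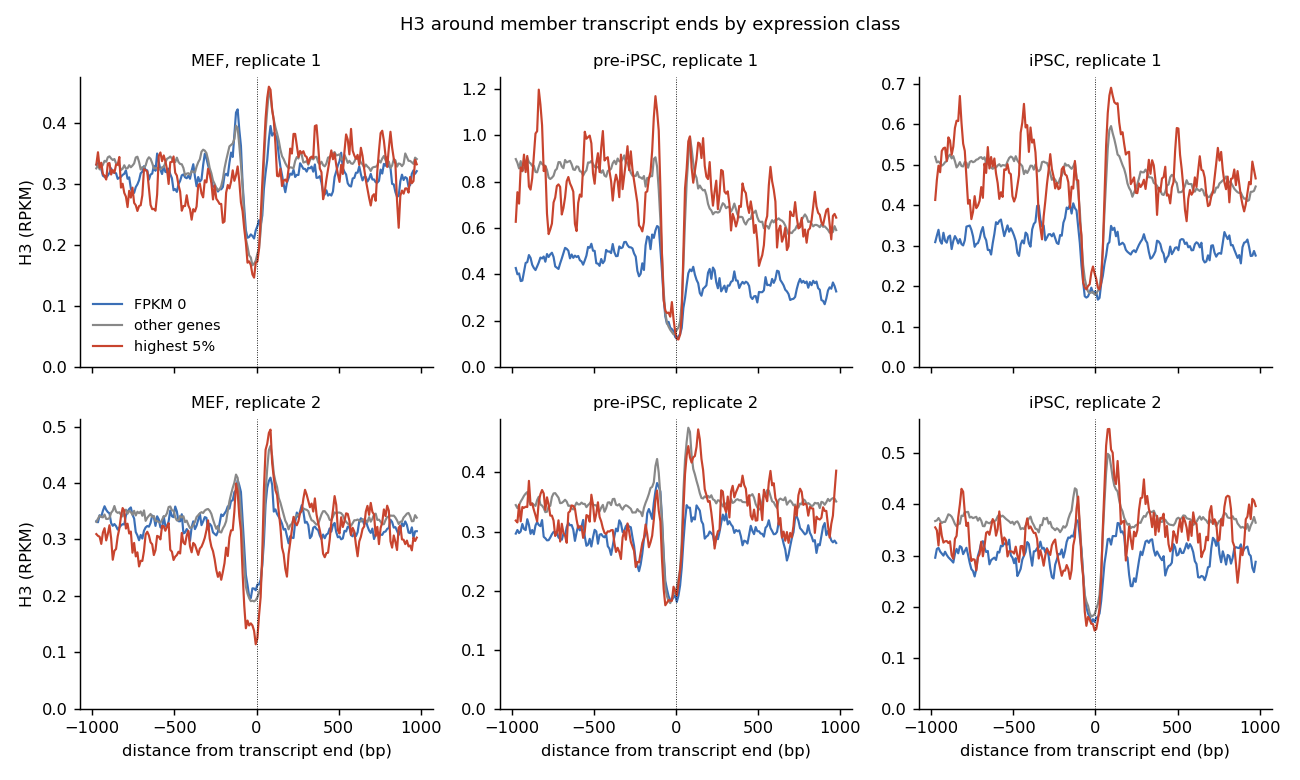
H3 (RPKM, smoothed over 5 bins of 10 bp) against the distance from the transcript end (bp), 1 panel per library, for genes at FPKM 0 (blue), the highest 5% (red) and the other genes (grey) of the same cell type; the vertical scales differ between panels. In all 6 panels the 3 lines drop to a minimum beside the end, and in replicate 1 of pre-iPSCs and of iPSCs the line of genes at 0 lies under the other lines in the flanks.

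The depth of the dip differed with expression and with the signal. The end ratio of the highest 5% was 0.630 and 0.562 for MEFs, 0.292 and 0.625 for pre-iPSCs, 0.450 and 0.528 for iPSCs, and that of genes at 0 was 0.711 and 0.680, 0.380 and 0.663, and 0.595 and 0.588. The highest class was thus lower than genes at 0 in each of the 6 libraries, by a mean log2 difference of -0.25 ± 0.13 (SD, n = 6; exact permutation test, p = 0.031, adjusted p = 0.0375). Without both libraries that stood apart the difference was -0.173, and with the reads spread over 73 bp either side of a dyad it was -0.091 and no longer passed the threshold. Expressed genes were also split into 4 equal groups. The ratio did not fall in steps over these groups: it was 0.621, 0.581, 0.560 and 0.572 from the lowest to the highest in replicate 1 of MEFs.

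Ends with AATAAA had a lower end ratio than ends with neither signal. The ratios with AATAAA were 0.566 and 0.575 for MEFs, 0.201 and 0.589 for pre-iPSCs, 0.379 and 0.511 for iPSCs, against 0.738 and 0.722, 0.418 and 0.699, and 0.565 and 0.676 with neither. The mean log2 difference was -0.50 ± 0.30 (SD, n = 6; exact permutation test, p = 0.031, adjusted p = 0.0375), and -0.340 without both libraries that stood apart. Ends with ATTAAA only had ratios of 0.530 and 0.563, 0.131 and 0.549, and 0.333 and 0.473, which lay under those with AATAAA in each library.

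GC content moved with the dip as well. In 3 equal groups of the ends by the GC content of the 200 bp at the end (cut at 35.0% and 42.5%), the end ratio rose from 0.419 to 0.634 and 0.762 in replicate 1 of MEFs and from 0.090 and 0.086 to 0.412 in replicate 1 of pre-iPSCs. The lowest GC group had a lower ratio than the highest in all 6 libraries. Within the middle GC group, ends with AATAAA had ratios of 0.592 and 0.605 for MEFs, 0.088 and 0.648 for pre-iPSCs, 0.339 and 0.533 for iPSCs, against 0.752 and 0.677, 0.093 and 0.644, and 0.377 and 0.598 with neither signal. The signal is itself made of A and T, and the mean log2 difference within this group was -0.151, which did not pass the threshold. Within the highest GC group the difference was wider, with ratios of 0.317 to 0.698 with AATAAA and 0.680 to 0.928 with neither. MNase cuts A/T-rich DNA more readily than other DNA, and the part of this in the dip was not tested.

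**Figure D2:**
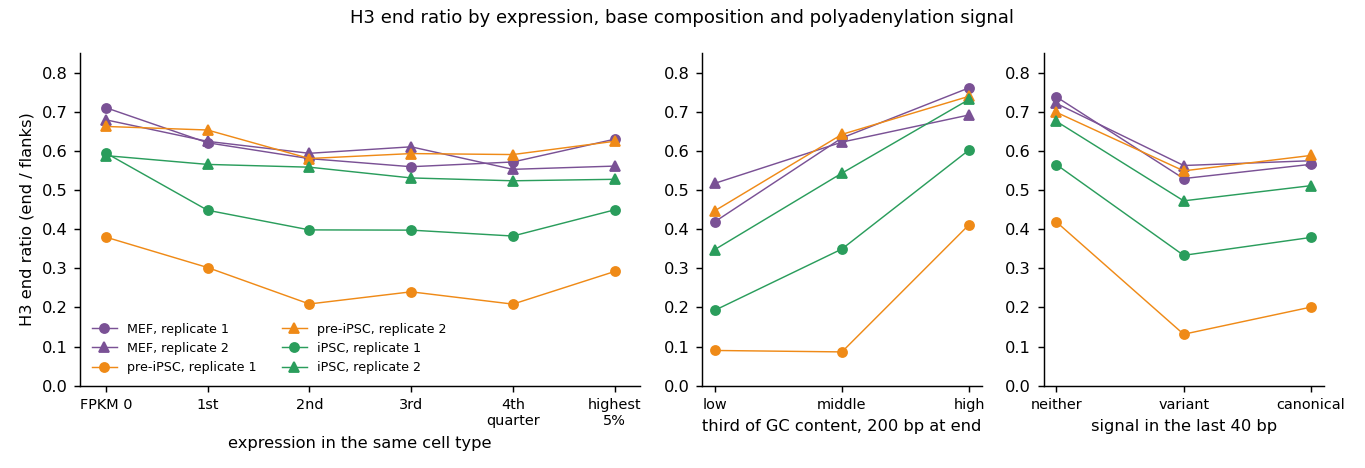
H3 end ratio (density at the end over that of the flanks) of each H3 library by expression (genes at FPKM 0, 4 equal groups of the genes above 0, highest 5%), by GC group and by polyadenylation signal (neither, the variant ATTAAA only, the canonical AATAAA); circles are replicate 1 and triangles replicate 2. All values lie under 0.85, they are lower in the lowest than in the highest GC group in every library, and replicate 1 of pre-iPSCs lies under the other libraries at each point.

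The sides of the end were not alike at ends of highly expressed genes. Over all members the density over 300 bp, starting 50 bp after the end, was 1.108 and 1.084 times that over the mirrored 300 bp before it for MEFs, 0.966 and 1.114 times for pre-iPSCs, and 1.084 and 1.128 times for iPSCs. This downstream ratio was above 1 in 5 of 6 libraries and missed the threshold (mean log2 0.11 ± 0.08, SD, n = 6; exact permutation test, p = 0.0625, adjusted p = 0.0682). It passed in 4 of the alternatives, such as in calls of at most 50 reads (0.127) and within the middle GC group (0.173). In the highest 5% the ratio was 1.278 and 1.290 for MEFs, 1.103 and 1.352 for pre-iPSCs, 1.313 and 1.400 for iPSCs. For genes at 0 it was 1.048 and 1.008, 0.777 and 1.054, and 0.915 and 1.025, so that the highest class was above the genes at 0 in each library. In replicate 2 of iPSCs the ratio went up from 1.066 to 1.125, 1.160 and 1.232 over the 4 groups of expressed genes. These values by class are a description, as no test of them was planned.

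H3 was higher at ends than at starts of the same genes. The ratio of the mean levels in 2-kb windows was 1.40 and 1.46 for MEFs, 1.03 and 1.52 for pre-iPSCs, 1.01 and 1.41 for iPSCs (mean log2 0.36 ± 0.27, SD, n = 6; exact permutation test, p = 0.031, adjusted p = 0.0375). The low ratios are those of both libraries that stood apart, where starts had 0.650 and 0.435 RPKM against 0.222 to 0.25 in the other 4, and without them the mean was 0.533. The difference passed in 4 of the 7 alternatives that kept all 6 libraries, and missed the threshold in calls of at most 50 reads (0.334), with no other gene within 5 kb (0.347) and without the 1% of windows with the most reads (0.352). Against the middles of the genes the ratio was 1.02 to 1.15 (mean log2 0.07 ± 0.07, exact permutation test, p = 0.031, adjusted p = 0.0375). The highest value was that of replicate 1 of pre-iPSCs, and the mean was smaller without the libraries that stood apart.

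H3K4me3 was low at ends. In MEFs it averaged 0.332 and 0.333 RPKM at ends and 1.318 and 1.031 RPKM at starts, in pre-iPSCs 0.385 and 0.374 against 0.896 and 0.835, and in iPSCs 0.416 and 0.411 against 0.925 and 0.840. The ratio of ends to starts was 0.252 to 0.489 (mean log2 -1.36 ± 0.37, SD, n = 6; exact permutation test, p = 0.031, adjusted p = 0.0375). It was lowest in the MEF libraries. Ends and gene middles were close, with ratios of 0.910 to 1.03 that did not pass the threshold (p = 0.15625 by the exact permutation test).

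H3K27me3 did not show this contrast between starts and ends. It was 1.02 to 1.19 times as high at ends as at starts (mean log2 0.13 ± 0.08, SD, n = 6) and 1.01 to 1.03 times as high as at middles (mean log2 0.03 ± 0.01), each with an exact permutation p of 0.031 and an adjusted p of 0.0375. Divided by the H3 level of the same cell type and replicate number, both differences turned their sign, to a mean log2 of -0.232 against starts and of -0.036 against middles. H3K9me3 was 0.342, 0.381 and 0.371 RPKM at ends of MEFs, pre-iPSCs and iPSCs, 0.252, 0.260 and 0.300 at starts and 0.327, 0.370 and 0.361 at middles.

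H3K27me3 at ends was lower in the highest expression class than at genes at 0 in every library. Genes at FPKM 0 had 0.414 and 0.425 RPKM for MEFs, 0.377 and 0.377 for pre-iPSCs, and 0.353 and 0.360 for iPSCs. The highest 5% had 0.153 and 0.187, 0.282 and 0.218, and 0.280 and 0.187. The ratio was 0.369 and 0.440, 0.749 and 0.579, and 0.794 and 0.520, a mean log2 of -0.85 ± 0.43 (SD, n = 6; exact permutation test, p = 0.031, adjusted p = 0.0375). In replicate 1 of MEFs the level went from 0.432 RPKM in the lowest of the 4 groups of expressed genes to 0.272, 0.203 and 0.168 RPKM in the next 3. The level did not fall over the whole range of expression, since the lowest group lay above the genes at 0 in each library, with 0.432 and 0.457 RPKM in MEFs and 0.448 to 0.454 RPKM in the 4 libraries of pre-iPSCs and iPSCs.

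H3K4me3 was higher at ends of the highest class than at those of genes at 0, by 1.38 and 1.15 times for MEFs, 1.24 and 1.43 times for pre-iPSCs, and 1.43 and 1.5 times for iPSCs. The mean log2 ratio was 0.43 ± 0.14 (SD, n = 6; exact permutation test, p = 0.031, adjusted p = 0.0375). Divided by H3 of the same cell type and replicate number it was 0.149 and no longer passed. For H3K9me3, with 1 library per cell type, the ratio of the highest class to genes at 0 was 0.739 for MEFs, 1.12 for pre-iPSCs, 1.01 for iPSCs.

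**Figure D3:**
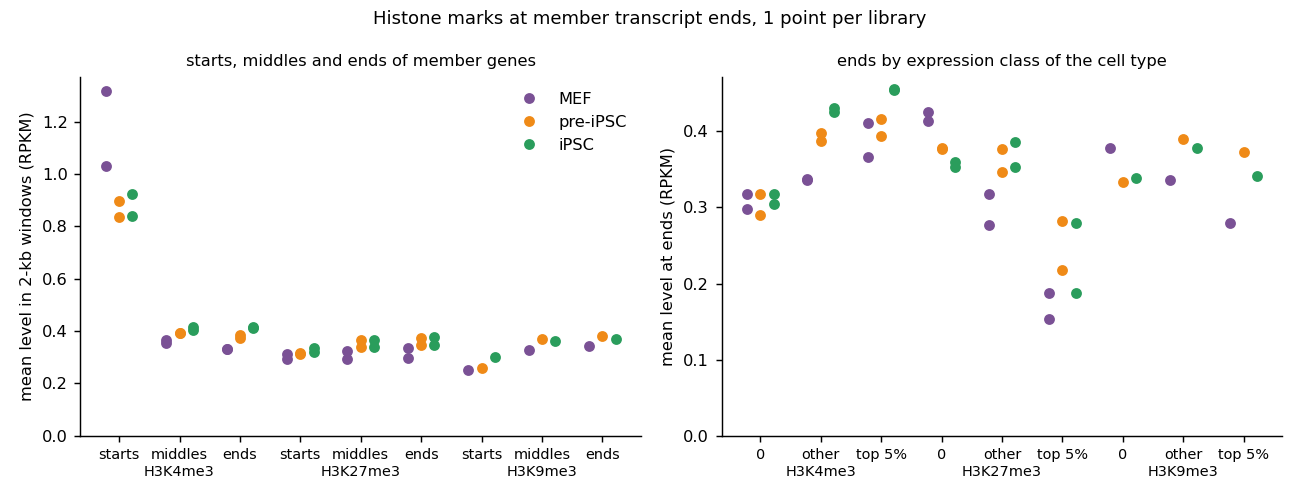
Mean level (RPKM) of H3K4me3, H3K27me3 and H3K9me3, 1 point per library, in 2-kb windows at starts, middles and ends of the 12310 genes (left) and at ends by expression class of the cell type (right). H3K4me3 is highest at starts in all libraries, and H3K27me3 at ends is lower for the highest 5% than for genes at FPKM 0 in each of the 6 libraries.

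Few ends were strongly marked. Over 1 RPKM in both libraries of a cell type, H3K4me3 was found at 41 ends for MEFs, 34 for pre-iPSCs, and 71 for iPSCs, and H3K27me3 at 39, 41 and 33 ends. H3K9me3 was over 1 RPKM at 64, 37 and 63 ends. The ends with H3K4me3 held a CpG-rich stretch in 63.4%, 61.8% and 80.3% of cases, against 9.01% of all members. They held a GENCODE transcript start, of the same or of another gene, in 17.1%, 23.5% and 14.1%, against 3.03%. The ends with H3K27me3 were those of genes with a median FPKM of 0.004, 0.048 and 0.16. None of the 39, 41 and 33 belonged to the highest expression class. That class held 4.22%, 4.05% and 4.0% of all members, so few of it are due among so few ends. Of 117 ends over 1 RPKM of H3K4me3 in any cell type, 11 (9.4%) were so in all 3, whereas it was 2 of 98 (2.04%) for H3K27me3 and 4 of 142 (2.82%) for H3K9me3. Both H3K4me3 and H3K27me3 were over 1 RPKM at 5 ends in MEFs (12.2% of those with H3K4me3 and 12.8% of those with H3K27me3), 1 in pre-iPSCs (2.94% and 2.44%) and 6 in iPSCs (8.45% and 18.2%).

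The highest levels of each mark were at Sfi1 (chr11:3030854-3032853), a gene of the centrosome. Its end had 4.11 to 8.31 RPKM of H3K4me3, 1.97 to 7.12 of H3K27me3, 6.68 to 11.7 of H3K9me3 and 3.94 to 10.8 of H3. All marks and H3 were high there together, and another GENCODE gene lies in its window. After Sfi1, the highest H3K4me3 was at BC046404 (1.40 to 2.73 RPKM), whose window holds the starts of 4930443B20Rik and Snord65, at the transcriptional co-repressor Irf2bp2 (1.04 to 2.71), at Epb4.1l4a (1.18 to 2.13) and at Myc (1.18 to 1.82). Myc, chr15:61820916-61822915, a gene of only 5.02 kb and 1 of the transduced factors, had 1.46 and 1.18, 1.29 and 1.82, and 1.74 and 1.65 RPKM in MEFs, pre-iPSCs and iPSCs while its FPKM was 57.8 and 36.3, 337 and 816, and 9.85 and 7.34. Transcripts of the retroviral copy cannot be told apart from those of the gene in these FPKM. H3K27me3 at the Myc end was 0.152 and 0.132, 0.563 and 0.978, and 0.778 and 0.925 RPKM. It rose in both comparisons with MEFs (edgeR adjusted p = 0.000823 and 0.000188). H3 was 0.257 and 0.252, 1.467 and 0.607, and 0.86 and 0.693 RPKM, without a call. Whether chromatin reads of the retroviral copy fall into this window was not tested.

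High H3K27me3 after Sfi1 was found at ends of 3 genes of at most 0.401 FPKM in each of the 6 libraries. Plcb2, a phospholipase C of blood cells, had 1.19 to 1.46 RPKM over the 6 libraries at an FPKM of at most 0.06. Lhx3, a LIM homeobox factor of the pituitary and motor neurons, had 0.917 to 1.73, and the glutamate receptor subunit Grin2c had 0.940 to 1.27 RPKM. The libraries of MEFs and iPSCs overlapped at Plcb2 and Lhx3, and at Grin2c both iPSC libraries lay above both MEF libraries. The highest H3K9me3 after Sfi1 was at the ubiquitin ligase gene Mid1 (3.61, 1.56 and 1.42 RPKM in MEFs, pre-iPSCs and iPSCs), the zinc transporter gene Slc30a4 (2.43, 1.31 and 1.16), Zfp180 (1.81, 1.19 and 0.761) and the natural killer receptor gene Klrb1c (1.35, 0.905 and 1.39). At Mid1 the MEF libraries differed from each other in the other assays, with 0.474 and 3.09 RPKM of H3K4me3, 0.091 and 0.848 of H3K27me3 and 0.240 and 1.76 of H3.

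Reads per end were compared between cell types with edgeR's quasi-likelihood test over all ends of the table that passed the filter on low counts, and the members were counted afterwards. For H3, 12064 members entered, and 0 rose and 0 fell in any of the 3 comparisons at the threshold of 0.05 on the adjusted p (background 0.0% of 19547 ends in either direction). At an unadjusted p below 0.05 there were 195 in pre-iPSCs against MEFs, 44 in iPSCs against pre-iPSCs, and 33 when iPSCs were set against MEFs, and DESeq2 also called 0. The variation between H3 replicates was large (biological coefficient of variation 44.6%, against 14.0% for H3K4me3 and 12.6% for H3K27me3). Without replicate 2 of pre-iPSCs, which leaves the library with the most H3 as the lone pre-iPSC library, 7020, 4172 and 37 members were called in these comparisons, and without any other library 0 were called. On simulated H3 data for iPSCs against MEFs, edgeR recovered 0 of 99 changes of 2-fold and 0 of 100 of 4-fold. Differences in H3 per end were thus not detectable at the spread between these libraries, and 0 calls do not show that H3 was unchanged.

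H3K27me3 changed at more ends between MEFs and the reprogrammed cells than between both of these. Of 8704 members tested, 117 rose and 138 fell in pre-iPSCs against MEFs (background over all 13428 ends tested, 1.47% and 1.79%). In iPSCs against MEFs 208 rose and 216 fell (background 3.19% and 2.55%), and in iPSCs against pre-iPSCs 7 rose and 4 fell (background 0.164% and 0.0372%). As shares of the members tested these were 1.34% and 1.59%, 2.39% and 2.48%, and 0.0804% and 0.046%, and the difference from all ends, which include the members, was not tested. DESeq2 called 1, 0 and 2 members in pre-iPSCs against MEFs, iPSCs against pre-iPSCs and iPSCs against MEFs, and gave no adjusted p to 5960, 0 and 4107 of the 8704. The counts depended on single libraries. In pre-iPSCs against MEFs, the 255 calls became 67 and 136 without replicate 1 or 2 of MEFs and 44 and 56 without replicate 1 or 2 of pre-iPSCs. In iPSCs against MEFs, the 424 calls became 101 and 226 without replicate 1 or 2 of MEFs and 56 and 237 without replicate 1 or 2 of iPSCs. The 11 calls in iPSCs against pre-iPSCs became 0 without either library of pre-iPSCs and 1 and 6 without replicate 1 or 2 of iPSCs. Scaled to the reads in all calls instead of by TMM, the median log2 difference of all ends was 0.21, 0.04 and 0.24 in these comparisons, in place of 0.01, -0.01 and -0.01 by TMM, and the counts were 172 rises and 37 falls, 6 and 3, and 364 and 67, so the balance of rises and falls rests on the scaling.

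Where both H3K27me3 at the end and expression of the gene were called, they moved mostly in opposite directions. Expression was tested with limma on log2(FPKM + 1), and a change needed an adjusted p below 0.05 and 2-fold. Among 8199 genes with member ends that entered, 598 rose and 822 fell in pre-iPSCs against MEFs (background over 12401 genes 7.39% and 9.0%), 310 and 412 in iPSCs against pre-iPSCs (background 3.91% and 4.71%) and 805 and 1402 in iPSCs against MEFs (background 10.3% and 15.5%). These calls too depended on single RNA-seq libraries, and the gene sets by expression come from the fit of all 6. The calls in pre-iPSCs against MEFs went from 1420 to 739 without replicate 2 of pre-iPSCs, and those in iPSCs against MEFs from 2207 to 752 and 882 without replicate 1 or 2 of iPSCs. In iPSCs against pre-iPSCs 722 calls became 118 and 54 without replicate 1 or 2 of iPSCs, 481 without replicate 2 of pre-iPSCs, and 1476 and 1530 without replicate 1 or 2 of MEFs. Of the 117 ends where H3K27me3 rose in pre-iPSCs against MEFs, 105 were of genes tested for expression, of which 48 fell and 2 rose. Of the 138 ends where it fell, 72 were of such genes, of which 45 rose and 1 fell. In iPSCs against MEFs, 190 of the 208 ends with a rise were tested for expression, and 101 of these genes fell and 4 rose. Of the 216 ends with a fall, 91 were tested, and 59 of these genes rose and 0 fell. The expression test took only genes with a mean FPKM of at least 0.5 over the 6 libraries. A gene near 0 in MEFs thus entered only if other cells expressed it, which favours a rise. The part of this filter in the splits at ends with a fall was not tested. Without replicate 1 or 2 of MEFs the 48 genes that fell in pre-iPSCs against MEFs became 9 and 20, and without replicate 1 or 2 of pre-iPSCs 14 and 10, with 0 to 2 that rose. The 45 that rose became 18, 21, 7 and 10 in these fits, with 0 that fell. In the fits without 1 library, 15 to 83 genes fell and 0 to 5 rose at such ends with a rise in iPSCs against MEFs, and 11 to 51 rose and 0 or 1 fell at those with a fall. For comparison, 17.1% of all members tested for expression fell and 9.82% rose in iPSCs against MEFs. Chromatin and RNA come from different libraries, but both comparisons share the MEF samples.

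The levels showed this contrast at genes whose expression fell, and less clearly at genes whose expression rose. At the 1402 genes whose expression fell in iPSCs against MEFs, the mean H3K27me3 at ends was 0.218 and 0.255 RPKM in MEFs and 0.396 and 0.370 in iPSCs. At the 805 genes whose expression rose it was 0.359 and 0.420 in MEFs and 0.370 and 0.321 in iPSCs. The median log2 difference of the ends tested was 0.51 for the former and -0.42 for the latter, beside 0.17 for all members tested for expression. The mean over all members tested for expression was 0.239 and 0.285 RPKM in MEFs and 0.360 and 0.311 in iPSCs. The libraries of both cell types did not overlap at ends of genes that fell, nor over all members, and overlapped at ends of genes that rose. In pre-iPSCs against MEFs, both pre-iPSC libraries (0.372 and 0.335 RPKM) lay under both MEF libraries (0.381 and 0.453) at ends of genes that rose.

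**Figure D4:**
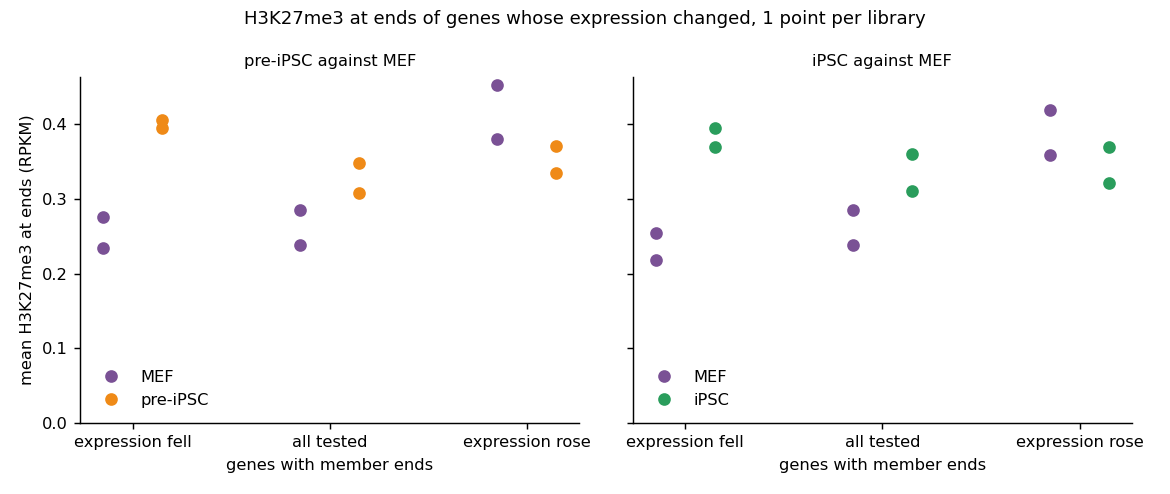
Mean H3K27me3 at ends (RPKM), 1 point per library, for member genes whose expression fell, for all members tested for expression and for genes whose expression rose, in pre-iPSCs against MEFs (left) and iPSCs against MEFs (right). At genes that fell, both MEF libraries (0.218 to 0.276) lie under both libraries of the other cell type (0.370 to 0.406). At genes that rose, MEFs (0.359 and 0.420) and iPSCs (0.370 and 0.321) overlap in the right panel. In the left panel both pre-iPSC libraries lie under both MEF libraries at genes that rose.

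Genes named here are the largest changes among called ends whose replicates do not overlap, 36 calls over both marks. Many of these calls rested on single libraries: 20 and 29 were kept without replicate 1 or 2 of MEFs, 16 and 17 without replicate 1 or 2 of pre-iPSCs, and 16 and 24 without replicate 1 or 2 of iPSCs. In calls of at least 2 reads, 9 of the 30 that could be fitted were kept. The 4 that passed without any 1 library were those of H3K27me3 at Cdkn2a in pre-iPSCs against MEFs and at Ctps and Tcfap2a in iPSCs against MEFs, and of H3K4me3 at Kctd15 in iPSCs against MEFs. None of the 12 calls between pre-iPSCs and iPSCs passed without either library of pre-iPSCs. Cdkn2a, chr4:88919378-88921377, encodes the cell cycle inhibitors p16Ink4a and p19Arf. Its end had 0.940 and 0.662 RPKM of H3K27me3 for MEFs, 0.141 and 0.214 for pre-iPSCs, 0.461 and 0.448 for iPSCs. It fell from MEFs to pre-iPSCs (log2 fold change -2.35, edgeR adjusted p = 9.5e-05), while its FPKM was 24.0 and 67.3, 103 and 172, and 37.9 and 20.1 (limma adjusted p = 0.0806). At the transmembrane channel-like gene Tmc8 (chr11:117653451-117655450) the level was 0.485 and 0.689 RPKM for MEFs, 0.197 and 0.061 for pre-iPSCs, and 0.259 and 0.478 for iPSCs (pre-iPSCs against MEFs, log2 -2.33, edgeR adjusted p = 0.000774). Its expression rose from 0.07 and 0.12 to 5.20 and 5.57 FPKM in pre-iPSCs (limma adjusted p = 0.00389). Vstm2a fell from 0.515 and 0.344 to 0.084 and 0.092 RPKM (edgeR adjusted p = 0.00906).

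Tcfap2a (chr13:40810045-40812044), the transcription factor AP-2 alpha of neural crest and epidermis, had the smallest adjusted p of the named ends. H3K27me3 was 0.818 and 0.795 RPKM for MEFs, 0.197 and 0.275 for pre-iPSCs, and 0.086 and 0.209 for iPSCs. It fell in pre-iPSCs (log2 -1.96, edgeR adjusted p = 0.000719) and in iPSCs (log2 -2.67, adjusted p = 3.35e-06) against MEFs. Its FPKM was 1.07 and 0.83, 19.5 and 11.6, and 0.52 and 0.52, with a rise in pre-iPSCs against MEFs (limma adjusted p = 0.00289) and no call in iPSCs against MEFs. Tsx and Zfp185, which both lie on chromosome X, fell in iPSCs against MEFs from 0.333 and 0.291 to 0.086 and 0.030 RPKM (edgeR adjusted p = 0.0304) and from 0.424 and 0.318 to 0.086 and 0.060 RPKM (adjusted p = 0.0188). Expression of both genes rose (limma adjusted p = 0.00776 and 0.0101). At both ends H3 was also lower in the iPSC libraries than in the MEF libraries, without a call by edgeR. It was 0.229 and 0.257 RPKM in MEFs and 0.112 and 0.108 in iPSCs at Tsx. At Zfp185 it was 0.235 and 0.207 against 0.144 and 0.168 RPKM. The part of H3 in the fall of the mark was not tested.

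The largest rises against MEFs were at ends with 1 or 2 reads in both MEF libraries together. These ends were picked for their large change in the same reads, and the intervals do not allow for that choice. Ctps (CTP synthase, chr4:120211474-120213473) had 0 and 1 read for MEFs, 13 and 8 for pre-iPSCs, and 13 and 14 for iPSCs, which gives a ratio of 21.8 (exact 95% interval 3.5 to 900.0) for pre-iPSCs and 28.0 (4.62 to 1150.0) for iPSCs over MEFs. Ccdc97 had 0 and 2 reads in MEFs and 14 and 14 in pre-iPSCs (ratio 14.5, 3.66 to 126.0), and Rcn3 had 0 and 2 against 13 and 8 reads (ratio 10.9, 2.66 to 95.7). Tbc1d20 had 1 and 1 reads in MEFs and 16 and 7 in iPSCs (ratio 11.9, 2.95 to 104.0). Rcn3, a calcium-binding protein of the endoplasmic reticulum, fell from 192 and 412 FPKM in MEFs to 49.3 and 14.6 in pre-iPSCs (limma adjusted p = 0.0122), whereas expression of the other 3 genes did not pass the threshold.

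Between pre-iPSCs and iPSCs the largest rises were at the homeobox genes Hoxb3 and Hoxa3 and at the cytokine signalling inhibitor gene Cish. Hoxb3 (chr11:96208244-96210243) had 0.333 and 0.344 RPKM for MEFs, 0.225 and 0.122 for pre-iPSCs, and 0.893 and 0.925 for iPSCs (iPSCs against pre-iPSCs, log2 2.30, edgeR adjusted p = 0.000363). Hoxa3 (chr6:52118062-52120061) had 0.273 and 0.477, 0.197 and 0.153, and 1.04 and 0.746 (log2 2.27, edgeR adjusted p = 0.000431). Expression of neither gene was called between pre-iPSCs and iPSCs. Hoxb3 went from 3.6 and 3.8 to 0.88 and 1.05 FPKM (limma adjusted p = 0.0749). Hoxa3 went from 1.96 and 1.77 to 2.25 and 2.10 FPKM (limma adjusted p = 0.876). Cish (chr9:107203292-107205291) had 0.303 and 0.450, 0.225 and 0.153, and 1.10 and 0.507 (log2 2.01, adjusted p = 0.00415), and its expression fell from 10.2 and 14.4 to 1.73 and 1.46 FPKM (limma adjusted p = 0.0224). The windows of all 3 hold a GENCODE start of another gene (Hoxb3os, 5730446D14Rik and Gm17041), so the signal cannot be assigned to the end alone. The 7 Hox ends had a mean of 0.606 and 0.749 RPKM for MEFs, 0.551 and 0.472 for pre-iPSCs, and 0.902 and 0.857 for iPSCs, against 0.299 to 0.378 over all members.

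The named falls between pre-iPSCs and iPSCs, out of 4 called, were at the calpain gene Capn11, the kainate receptor subunit Grik5 and Kndc1, a gene of the brain. Capn11 went from 0.703 and 0.672 to 0.288 and 0.090 RPKM (edgeR adjusted p = 0.0177), Grik5 from 1.18 and 0.948 to 0.346 and 0.418 (adjusted p = 0.0194) and Kndc1 from 1.01 and 0.856 to 0.346 and 0.328 (adjusted p = 0.0371). The FPKM of Grik5 was also lower in iPSCs, at 5.59 and 5.75 against 20.0 and 20.0 in pre-iPSCs, without a call (limma adjusted p = 0.09). Capn11 and Kndc1 did not enter the expression test. At Capn11 and Kndc1 the MEF libraries were also above both iPSC libraries and the iPSC against MEF comparison passed (adjusted p = 0.00857 and 0.00233).

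**Figure D5:**
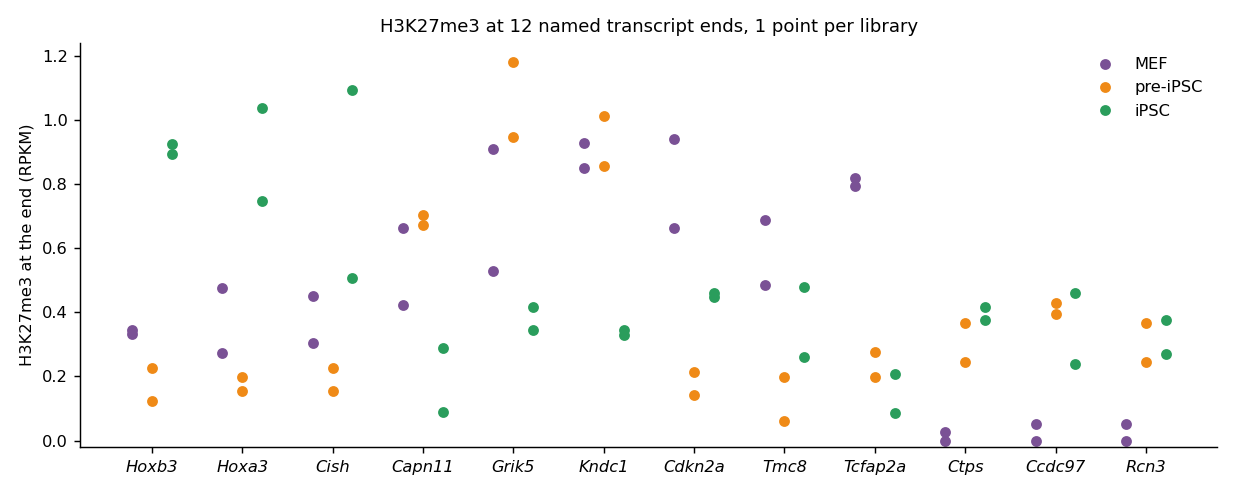
H3K27me3 (RPKM) at the ends of 12 genes, 1 point per library. Hoxb3, Hoxa3 and Cish are highest in iPSCs (0.507 to 1.10), Capn11, Grik5 and Kndc1 are lowest in iPSCs, Cdkn2a, Tmc8 and Tcfap2a are highest in MEFs (0.485 to 0.940), and Ctps, Ccdc97 and Rcn3 lie at 0 to 0.053 in MEFs.

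With all 6 libraries, H3K4me3 was called at more ends in iPSCs against MEFs than in the other comparisons. This order turned without replicate 1 of iPSCs. Of 9621 members tested, 233 rose and 211 fell (background over 15577 ends 2.63% and 3.52%). In pre-iPSCs against MEFs 56 rose and 53 fell (background 0.571% and 0.989%), and in iPSCs against pre-iPSCs 4 rose and 3 fell (background 0.0642% and 0.0449%). DESeq2 called 5, 1 and 0 members in these comparisons, and gave no adjusted p to 9460, 9460 and 0 of the 9621. In iPSCs against MEFs, the 444 calls became 75 and 244 without replicate 1 or 2 of MEFs and 27 and 194 without replicate 1 or 2 of iPSCs. The 109 calls in pre-iPSCs against MEFs became 12 without replicate 1 of MEFs, 47 and 7 without replicate 1 or 2 of pre-iPSCs, and 64 and 66 without replicate 1 or 2 of iPSCs. The 7 calls in iPSCs against pre-iPSCs became 2 and 0 without replicate 1 or 2 of pre-iPSCs and 0 and 3 without replicate 1 or 2 of iPSCs. Scaled to the reads in all calls, the median log2 difference of all ends was 0.31, 0.18 and 0.13, in place of 0.01, 0.01 and 0.00 by TMM, and 858 rose and 88 fell, 134 and 24, and 18 and 2. Of the 233 rises 76 held a CpG-rich stretch, and of the 211 falls 13, beside 9.01% of all members, tested or not.

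Ends called for H3K4me3 were also set against the expression calls. In iPSCs against MEFs 196 ends with a rise were of genes tested for expression, of which 26 rose and 17 fell, and 162 ends with a fall, of which 51 fell and 5 rose. In pre-iPSCs against MEFs it was 10 up and 1 down of 52 with a rise, and 10 down and 0 up of 42 with a fall. Over all members tested for expression, 9.82% rose and 17.1% fell in iPSCs against MEFs, and 7.29% and 10.0% in pre-iPSCs against MEFs. At ends with a rise in iPSCs against MEFs, the split of 26 up and 17 down became 2 and 2 without replicate 1 of iPSCs, 3 and 1 without replicate 1 of MEFs, 12 and 7 without replicate 2 of MEFs and 14 and 5 without replicate 2 of iPSCs. It was 11 and 8 in calls of at least 2 reads. At ends with a fall it was 4 to 44 down and 0 to 4 up in the fits without 1 library. In pre-iPSCs against MEFs, the 10 up of 52 became 3 of 7 without replicate 1 of MEFs, 5 of 18 without replicate 2 of MEFs and 1 of 3 without replicate 2 of pre-iPSCs. The 10 down of 42 became 0 of 5, 16 of 50 and 0 of 4 in these fits, 1 of 4 without replicate 1 of pre-iPSCs, and 6 of 24 without replicate 1 of iPSCs. At the 805 genes whose expression rose in iPSCs the mean level was 0.326 and 0.325 RPKM in MEFs and 0.494 and 0.479 in iPSCs. At the 1402 genes that fell it was 0.382 and 0.362 in MEFs and 0.415 and 0.415 in iPSCs, and over all members tested for expression it was 0.339 and 0.335 in MEFs and 0.431 and 0.427 in iPSCs. The median log2 difference of the ends tested was 0.30 where expression rose and -0.12 where it fell, beside 0.09 over all members. The difference between the marks in their link with expression was not tested.

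Among the rises, the adaptor gene Shb (chr4:45435149-45437148) had 0.102 and 0.191 RPKM of H3K4me3 for MEFs, 0.767 and 1.2 for pre-iPSCs, 0.466 and 0.889 for iPSCs (pre-iPSCs against MEFs, log2 2.54, edgeR adjusted p = 0.00023). Its expression rose with it, from 9.02 and 7.46 to 20.7 and 29.6 FPKM (limma adjusted p = 0.0342). Kctd15, an inhibitor of AP-2 (chr7:35423037-35425036), had 0.169 and 0.064, 0.644 and 0.747, and 0.807 and 0.954 RPKM. It rose in both comparisons with MEFs (edgeR adjusted p = 0.00409 and 0.00028), at 6.86 to 18.7 FPKM without a call in expression. Cpt1b, a carnitine palmitoyltransferase of muscle (chr15:89245837-89247836), went from 0.034 and 0.127 to 0.869 and 0.625 RPKM in iPSCs (log2 2.84, edgeR adjusted p = 0.000194) while its expression rose (limma adjusted p = 0.0108), and another GENCODE gene lies in its window. Radil went from 0.102 and 0.096 to 0.807 and 0.527 RPKM (adjusted p = 0.00137), and its expression rose as well (limma adjusted p = 0.0252). Sft2d2 was the remaining named rise in pre-iPSCs (0.068 and 0.096 to 0.521 and 0.552 RPKM).

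Between pre-iPSCs and iPSCs, Dand5, a Nodal and BMP antagonist (chr8:87338305-87340304), had 0.307 and 0.325 RPKM in pre-iPSCs and 2.02 and 0.856 in iPSCs (log2 2.04, edgeR adjusted p = 0.00323). The autophagy gene Atg13 went from 0.276 and 0.162 to 0.869 and 0.954 (adjusted p = 0.0333) and the semaphorin gene Sema6c from 0.399 and 0.292 to 1.34 and 1.02 RPKM (adjusted p = 0.0451). Dand5 and Sema6c hold a CpG-rich stretch, and expression of none of the 3 passed the threshold between these cell types.

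The falls of H3K4me3 included several zinc finger genes. Zfp948 (chr17:21724649-21726648) had 0.610 and 0.987 RPKM for MEFs, 0.644 and 0.650 for pre-iPSCs, and 0.186 and 0.165 for iPSCs, and fell in iPSCs against both MEFs (log2 -2.47, edgeR adjusted p = 8.71e-05) and pre-iPSCs (log2 -1.99, adjusted p = 0.0417). Zfp935 fell from 0.407 and 0.382 to 0.062 and 0.099 RPKM and Zfp959 from 0.576 and 0.510 to 0.062 and 0.165 in iPSCs against MEFs (edgeR adjusted p = 0.00973 and 0.000578). Their expression did not pass the threshold. Of 305 ends of genes named Zfp and a number, 257 were tested in iPSCs against MEFs, of which 5 rose and 41 fell (background 2.63% and 3.52%), with a median log2 change of -0.48 against 0.04 over all members tested. H3K9me3 averaged 0.459 RPKM at these 305 ends for MEFs, 0.464 for pre-iPSCs, and 0.339 for iPSCs, beside 0.342, 0.381 and 0.371 over all members, and 15, 9 and 1 of the ends over 1 RPKM of H3K9me3 were of Zfp genes. Their mean H3K4me3 was 0.387 and 0.460 RPKM for MEFs, 0.486 and 0.390 for pre-iPSCs, and 0.375 and 0.389 for iPSCs, so that the libraries of MEFs and iPSCs overlapped in this mean.

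The other named falls were at Ythdc1, a reader of methylated RNA (0.983 and 0.446 RPKM in MEFs, 0.031 and 0.227 in pre-iPSCs, edgeR adjusted p = 0.000191), Cntnap5b (0.440 and 0.382 to 0.092 and 0.065), the phosphatase gene Phlpp1 (0.474 and 0.701 to 0.092 and 0.260) and the transporter gene Slc7a13, whose FPKM was 0 in all 6 libraries (0.474 and 0.414 in MEFs to 0.062 and 0.099 in iPSCs, adjusted p = 0.0027). The DNA repair nuclease gene Dclre1a went from 0.767 and 0.715 in pre-iPSCs to 0.217 and 0.230 in iPSCs and Zbtb2 from 0.920 and 0.422 to 0.248 and 0.165 RPKM (edgeR adjusted p = 0.0333 and 0.0451).

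Of 8 fibroblast marker ends, 4 were tested for H3K27me3 in iPSCs against MEFs and 2 rose (background 3.19%). Thy1, a surface glycoprotein of fibroblasts, had 0.121 and 0.265 RPKM for MEFs, 0.591 and 0.734 for pre-iPSCs, and 0.749 and 0.716 for iPSCs (iPSCs against MEFs, log2 1.64, edgeR adjusted p = 0.00977), while its FPKM was 496 and 319, 87.1 and 26.3, and 41.3 and 30.5. Col1a1, the collagen I chain, had 0.030 and 0.212, 0.253 and 0.489, and 0.461 and 0.567 RPKM (log2 1.75, adjusted p = 0.0223). H3K4me3 fell at 2 of 7 tested (background 3.52%). The intermediate filament gene Vim went from 0.610 and 0.860 to 0.186 and 0.395 RPKM in iPSCs (adjusted p = 0.00595) and Col3a1 from 0.542 and 0.159 to 0.124 and 0.066 RPKM (adjusted p = 0.032). Of the 4 pluripotency marker ends (Nanog, Zfp42, Esrrb and Tdgf1), 4 were tested for H3K4me3 and 2 for H3K27me3. EdgeR called 0 of them in any comparison. The background in iPSCs against MEFs was 2.63% and 3.52% for H3K4me3 and 3.19% and 2.55% for H3K27me3, so calls are hardly due among so few ends. On simulated data for this comparison, edgeR recovered 8 of 99 changes of 2-fold for H3K4me3 and 17 of 99 for H3K27me3. Of 100 changes of 4-fold it recovered 95 and 98. Expression of the 4 genes rose in iPSCs against MEFs. At Esrrb, H3K4me3 was 0.305 and 0.287 RPKM for MEFs, 0.767 and 0.292 for pre-iPSCs, and 0.745 and 0.724 for iPSCs (edgeR adjusted p = 0.134 for iPSCs against MEFs).

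H3K9me3 had 1 library per cell type, so its differences compare libraries and have no replicate check. The ends given here were picked as the largest differences in the same reads, and the intervals do not allow for that choice. Fbn1, the microfibril protein fibrillin (chr2:125125331-125127330), had 2 reads for MEFs, 10 for pre-iPSCs, and 20 for iPSCs, a ratio of iPSCs to MEFs of 10.1 (exact 95% interval 2.45 to 89.0), while its FPKM was 131 and 46.5, 12.2 and 3.47, and 2.87 and 5.59. The glutathione synthesis gene Gclc had 4, 12 and 30 reads (ratio 7.57, 2.67 to 29.6) and Zswim4 had 3, 9 and 22 (ratio 7.4, 2.22 to 38.6). In the other direction Zfp81 had 29, 17 and 2 reads (MEFs over iPSCs 14.4, 3.64 to 124.0), Zfp748 had 21, 15 and 3 (6.94, 2.07 to 36.3) and Tnfrsf13b, a gene of the TNF receptor family known from B cells, had 27, 20 and 4 (6.69, 2.33 to 26.3). Higher in pre-iPSCs than in MEFs were Abtb2 (20 against 1 read), the RNA sensor gene Ddx58 (28 against 3) and Tanc1 (23 against 3). Lower were 1600014C10Rik (58 to 11), the spliceosome factor gene Cwc22 (53 to 10) and Tcfap2d (20 to 4). In iPSCs against pre-iPSCs, Olfr53 (4 to 20), Ces2e (7 to 30) and Gm5416 (5 to 22) were higher and Ppil3 (21 to 2), Mki67ip (21 to 3) and Gimap5 (26 to 4) lower. At 1600014C10Rik and Cwc22 H3 was 0.419 and 1.33, and 0.179 and 1.07 RPKM in replicates 1 and 2 of MEFs, so that at these ends MEF replicates differed in H3 as well.

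Other symbol groups had few members. Of 1108 olfactory receptor genes, 39 had a member end, of which 16 were tested for H3K4me3 and 21 for H3K27me3, and 0 or 1 was called in a comparison with MEFs (background 0.571% to 3.52% in either direction). Of 71 protocadherin genes 11 had one, of which 5 and 7 were tested, and 1 fell for H3K4me3 in iPSCs against MEFs (background 3.52%). Of the 36 collagen ends, 32 were tested for H3K27me3, and 3 rose in pre-iPSCs against MEFs (background 1.47%), and 2 rose and 1 fell in iPSCs against MEFs (background 3.19% and 2.55%), with a mean of 0.303 and 0.393 RPKM for MEFs, 0.464 and 0.452 for pre-iPSCs, and 0.490 and 0.438 for iPSCs.

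Few genes of the machinery that makes transcript ends were called for expression. Of 27 genes of cleavage, polyadenylation and termination, 16 of which had a member end, 0 were called by limma in pre-iPSCs against MEFs (background 7.39% rose and 9.0% fell) and in iPSCs against pre-iPSCs (background 3.91% and 4.71%), and 2 rose and 0 fell in iPSCs against MEFs (background 10.3% and 15.5%). On simulated data for this comparison the test recovered 2 of 100 changes of 2-fold and 75 of 100 of 4-fold. A call needs an estimate of at least 2-fold, and the median estimate of the simulated 2-fold changes was log2 0.955. The recovery at 2-fold thus depends on this threshold as well. The share of 2-fold changes missed in the measured libraries was not tested. The genes that rose were Cpsf1, the large CPSF subunit (log2 1.14, limma adjusted p = 0.0432), and Clp1 of cleavage factor II (log2 1.49, adjusted p = 0.0306). The median log2 change of the 27 genes was 0.28, 0.13 and 0.58 in these comparisons, beside -0.05, -0.11 and -0.17 over the members tested. The summed FPKM of CPSF was 121 and 72.6 for MEFs, 139 and 116 for pre-iPSCs, 148 and 117 for iPSCs. CstF summed to 58.6 and 39.7, 73.5 and 43.0, and 72.3 and 66.7, and CFIm to 112 and 94.1, 179 and 140, and 326 and 148.

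Ends left out for a neighbour within 2 kb gave similar H3 values. Their end ratio was 0.630 and 0.589 for MEFs, 0.194 and 0.587 for pre-iPSCs, 0.384 and 0.556 for iPSCs. H3K4me3 was higher at these 3169 ends than at the members in each library, with 0.433 to 0.576 against 0.332 to 0.416 RPKM. No test of this difference was made.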

How the data were processed

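The processed files of 27 mouse samples were used: nucleosome calls of 21 MNase ChIP-seq libraries and FPKM of 6 RNA-seq libraries. Per the study's methods, the authors aligned chromatin reads to mm9 with Bowtie 1.0.1 (up to 2 mismatches, unique hits), shifted them by 73 bp towards the dyad and called nucleosomes with GeneTrack. The deposited calls give a read count per nucleosome, with the standard deviation of read positions (fuzziness) as a score. FPKM were made by the authors with TopHat2 2.0.4 and Cufflinks 2.0.2 and deposited in 1 table per replicate.

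Ends were taken from the gene coordinates of the expression table. Reads were placed at the called dyad, counted in 2-kb windows and given as RPKM, that is reads per kb scaled to the uniquely mapped reads. Ratios over libraries were tested with an exact two-sided permutation of signs, adjusted (Benjamini-Hochberg) over 12 tests. Reads per end were tested with edgeR 4.0.16 (quasi-likelihood, TMM, all cell types in 1 fit), and log2(FPKM + 1) with limma 3.58.1 for genes with a mean FPKM of at least 0.5, with the table, which holds 1 replicate of each cell type, as a block. A call is an adjusted p below 0.05 over all features, and for expression also 2-fold. R 4.3.3 with DESeq2 1.42.0 as an alternative, and Python 3.11.15 with scipy 1.17.1, pandas 2.3.3 and numpy 2.4.6 were the other tools, and the tests across features were tested on simulated data. Sequences and GC content were read from the mm9 genome (NCBIM37), and other genes and starts from GENCODE M1.

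H3 libraries held 67.4 to 108 M reads in calls (M, 1e6) and mark libraries 12.0 to 15.2 M, which limits the precision of single ends. The calls of at least 1 read are kept as deposited, so reads outside calls are not seen, and unique mapping leaves repeats thinly covered. Genes were named by rule: the 3 largest rises and falls per mark and comparison among called ends whose replicates do not overlap, the 5 highest ends per mark, for H3K9me3 the 3 largest rises and falls with at least 20 reads, and the marker genes. 1 of the ends that this rule names is not reported here. The alternatives were other scalings, filters, windows, tools, a replicate block and leaving out each library. Members and lists were chosen with earlier results of these data known.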

Additional observations from a re-analysis of the deposited data

Results flagged for a closer look

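H3K9me3 at ends of the highest 5% of genes against genes at FPKM 0 differed in direction between the cell types: the ratio was 0.739 in the MEF library, 1.01 in the iPSC library and 1.12 in the pre-iPSC library. With 1 library per cell type this difference was not tested.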

How the results depend on the processing

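The H3 end ratio passed under each of the 9 alternatives that kept all 6 libraries, and so did H3K27me3 by expression class (11 alternatives), H3K4me3 of ends against starts (9) and H3 of ends against middles (7). Fits without a library have fewer than 6 values, cannot pass 0.05 in this exact test, and are given as values with no test. The downstream ratio passed in calls of at most 50 reads (0.127), genes longer than 10 kb (0.129), the middle GC group (0.173) and with each end of equal weight (0.164). The end ratio of the highest 5% minus genes at 0 missed the threshold with reads spread over 73 bp (-0.091), and that of AATAAA minus no signal within the middle GC group (-0.151). Divided by the H3 level, H3K4me3 by class was 0.149, H3K9me3 by class -0.572, and H3K4me3 against middles -0.117, which then passed. H3K27me3 against starts was 0.128 in calls of at least 2 reads (not passing), and turned to -0.232 when divided by H3 and -0.417 when divided by H3 of replicate 2, a division chosen after seeing the data. Against middles it turned to -0.036 and -0.004. H3 against starts missed the threshold in calls of at most 50 reads (0.334), with no gene within 5 kb (0.347) and without the 1% of windows with the most reads (0.352). The causes were not tested.

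Counts of called ends are given for pre-iPSCs against MEFs, iPSCs against pre-iPSCs and iPSCs against MEFs. For H3K4me3 DESeq2 called 1, 0 and 5 (no adjusted p for 9460, 0 and 9460 of 9621 members), windows of 500 bp 10, 0 and 49, and calls of at least 2 reads 9, 0 and 135. Scaling to the reads in all calls gave 20 and 946 in the last 2 comparisons, scaling to uniquely mapped reads 20 and 936, and no filter 1 in iPSCs against pre-iPSCs. For H3K27me3 DESeq2 called 1, 0 and 2 (no adjusted p for 5960, 0 and 4107 of 8704), windows of 500 bp 47, 1 and 44, and calls of at least 2 reads 59, 2 and 89. Expression without a filter gave 865 in pre-iPSCs against MEFs. With the replicate number as a block, H3K27me3 had 128, 3 and 259 calls, H3K4me3 87, 3 and 401, and H3 0 in each. No label states that a number marks shared material. Deviations of same-numbered libraries correlated at 0.78 (H3), 0.126 (H3K4me3) and 0.144 (H3K27me3) between pre-iPSCs and iPSCs. Between MEFs and either they correlated at -0.148 to -0.0711. The main fits of chromatin reads took the libraries as unpaired. Whether same-numbered libraries of pre-iPSCs and iPSCs share a clone or a batch was not tested, and if they do they are not independent. Expression, fitted with the replicate number (the table) as a block, had 1393, 755 and 2073 calls with no replicate block. Of 36 named calls the block kept 29, leaving out 1 library 16 to 29, and DESeq2 0, with 22 given no adjusted p by DESeq2, calls of at least 2 reads kept 9 of 30, and no named end turned its direction.

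Leaving out 1 library (or both H3 libraries that stood apart, chosen after seeing the data) gave, as mean log2 values with no test, -1.104 to -0.748 for the end ratio, 0.097 to 0.148 for the downstream ratio, -0.278 to -0.173 for the highest class and -0.550 to -0.340 for AATAAA. H3 against starts was 0.316 to 0.533 and against middles 0.035 to 0.078. Without both H3 libraries that stood apart, the downstream ratio was 0.148 and H3 against middles 0.035. H3K9me3 by class was -0.212 to 0.088, positive without MEF replicate 1. Calls per end were, in the same order, 0 to 7020, 0 to 4172 and 0 to 37 for H3, all above 0 without pre-iPSC replicate 2 only, 7 to 84, 0 to 9 and 27 to 413 for H3K4me3, and 44 to 225, 0 to 12 and 56 to 328 for H3K27me3. The fewest were left without pre-iPSC replicate 2 (H3K4me3) or 1 (H3K27me3) in pre-iPSCs against MEFs, and without iPSC replicate 1 in iPSCs against MEFs. Expression calls were 739 to 1885, 54 to 1530 and 752 to 2423.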
